A study of Mus musculus with 6 samples.

Results

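The genes studied here encode 10 components of basement membranes other than laminins: the collagen IV chains Col4a1 to Col4a6, collagens XV (Col15a1) and XVIII (Col18a1), nidogen 1 (Nid1) and perlecan (Hspg2). Every probe set whose platform annotation gave one of these symbols alone was taken, which gave 20 of 45101 probe sets for 10 of 18194 genes, and 8 of the genes had more than 1 probe set. Both groups were lung endothelial cells (ECs) from NSG mice, a strain without mature lymphocytes, that were 6 to 8 weeks of age and carried lung metastases of MDA-MB-231-LM2 cells, a derivative of a human breast cancer line selected for growth in the lung. In the shTNC group the injected cancer cells expressed a short hairpin RNA against human tenascin C (TNC), a matrix glycoprotein. In the shControl group they expressed a control hairpin. The lungs were taken 20 days after injection into a vein, and ECs were sorted from whole lung as CD31-positive cells without the markers CD45, CD11b, EpCAM, CD140a and CD140b or the GFP of the cancer cells. Each group had 3 samples, labelled as biological replicates, with 1 array each. The hairpin acted in the human cells that the sort removed, so no array value checks the knockdown, and the labels give neither the metastatic load of each lung nor the number of mice behind a sample. An effect of the hairpin through tenascin C and one through the load of metastases therefore cannot be told apart, and p-values measure only the spread between these samples.

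Basement membranes are thin sheets of matrix under endothelium and epithelium. Collagen IV forms their covalent network from trimers of 3 kinds: Col4a1 with Col4a2 in nearly every vessel, Col4a3 with Col4a4 and Col4a5 mainly in the kidney glomerulus and the alveolar wall of the lung, and Col4a5 with Col4a6 under some epithelia and smooth muscle. Nidogen 1 joins the collagen IV network to the laminin network. Perlecan carries heparan sulphate chains that bind growth factors. Collagens XV and XVIII are proteoglycans of the vascular basement membrane zone, and endostatin, an inhibitor of angiogenesis, is released from the end of collagen XVIII. Cleavage also releases fragments with reported activity against vessel growth from several collagen IV chains and from perlecan.

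The 10 genes lay on both sides of 0 in shTNC. Col15a1 and Col18a1 had lower values, at 0.742 and 0.841 times the shControl level, and Hspg2 was at 0.839 times. Col4a3, Col4a4 and Col4a5 had higher values, at 1.62, 1.33 and 1.27 times. Col4a1, Col4a2 and Nid1 were at 1.02, 1.04 and 1.04 times. No probe set of the whole table passed an adjusted p of 0.05 in limma (0% of 45101), so these are differences at an unadjusted p only. With 1 probe set per gene, the one with the highest mean, 2 of the 10 genes were lower in shTNC with an unadjusted p under 0.05, against 7.12% of all genes, and 3 were higher, against 4.54%. Together that was 5 of 10, against 11.7%. The 10 genes were chosen with earlier results of these data known, and Col4a4 and Col4a5 varied together within groups (Pearson r 0.89). The counts are therefore a description, not a test. Groups did not overlap in 2 lower genes and 1 higher gene, against 12.4% and 7.36% of all genes. Of the 20 probe sets, 3 were lower and 5 higher at that p, against 6.3% and 6.66% of all probe sets (13% in either direction). Groups did not overlap in 3 lower and 3 higher probe sets, against 10.5% and 8.92%. The median difference was 0.052 on the log2 scale over the 10 genes and -0.030 over all genes. The array of shControl replicate 2 stood apart. On the first principal component it was at -43.6, the other shControl arrays at -11.1 and 0.251, and the shTNC arrays at 17.3, 16.1 and 21.1. Without that array the counts were 1 lower gene, Col15a1, and 1 higher gene, Col4a3, with differences of -0.44 and 0.60. An exact permutation test cannot go below a two-sided p of 0.1 with 3 arrays per group, and it gave 0.1 for Col15a1, Col18a1 and Col4a3 and 0.2 to 0.6 for the other 7 genes.

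The chain pairs of collagen IV also lie in pairs in the genome. The promoter windows of Col4a1, Col4a2 and Col4a4 are shown because the start sites of the pairs Col4a1 with Col4a2 and Col4a3 with Col4a4 lie within one window. Those of Col15a1, Col18a1 and Hspg2 are shown because these had the lowest differences. RefSeq gave windows for 9 of the 10 genes, all but Col4a3, on mouse build GRCm38.p6. A window ran from 250 bases before a start site to 50 bases from it on, and Col18a1 had windows at both of its start sites. Col4a1 (chr8:11312777-11313076, minus strand) and Col4a2 (chr8:11312555-11312854, plus strand) lie on opposite strands with annotated start sites 21 bases apart, and their windows share 78 bases. The Col4a4 window (chr1:82586800-82587099, minus strand) also holds the annotated start of Col4a3 on the other strand, at position 82586921. The windows of Col15a1 (chr4:47207762-47208061, plus strand), the upstream start of Col18a1 (chr10:77166481-77166780, minus strand) and Hspg2 (chr4:137468553-137468852, plus strand) follow. Each is written 5′ to 3′ on its gene's strand, and capitals mark a CCAAT box (CCAAT) or a GC box (GGGCGG) on either strand.
Col4a1: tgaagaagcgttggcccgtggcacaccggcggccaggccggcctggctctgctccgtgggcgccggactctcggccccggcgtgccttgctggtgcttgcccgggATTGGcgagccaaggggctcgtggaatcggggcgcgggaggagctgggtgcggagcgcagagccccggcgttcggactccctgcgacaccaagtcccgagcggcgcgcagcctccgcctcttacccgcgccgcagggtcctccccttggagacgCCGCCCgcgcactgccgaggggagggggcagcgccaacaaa
Col4a2: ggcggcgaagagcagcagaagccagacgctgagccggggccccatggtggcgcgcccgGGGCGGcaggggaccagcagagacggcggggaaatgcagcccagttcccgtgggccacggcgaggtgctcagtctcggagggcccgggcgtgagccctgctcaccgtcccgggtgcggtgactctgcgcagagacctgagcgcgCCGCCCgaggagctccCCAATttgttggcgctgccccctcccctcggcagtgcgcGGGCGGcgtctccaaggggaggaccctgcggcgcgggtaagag
Col4a4: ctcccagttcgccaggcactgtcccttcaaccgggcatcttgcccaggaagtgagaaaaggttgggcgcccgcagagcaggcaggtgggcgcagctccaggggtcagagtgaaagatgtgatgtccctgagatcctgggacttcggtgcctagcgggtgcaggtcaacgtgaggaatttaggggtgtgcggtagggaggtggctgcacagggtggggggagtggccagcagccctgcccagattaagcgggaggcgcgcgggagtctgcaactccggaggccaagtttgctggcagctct
Col15a1: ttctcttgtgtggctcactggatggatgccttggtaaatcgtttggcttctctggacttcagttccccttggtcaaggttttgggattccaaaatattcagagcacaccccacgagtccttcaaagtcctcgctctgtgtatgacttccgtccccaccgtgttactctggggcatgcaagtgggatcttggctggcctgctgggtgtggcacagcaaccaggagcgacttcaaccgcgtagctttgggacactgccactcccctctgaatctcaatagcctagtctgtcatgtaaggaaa
Col18a1: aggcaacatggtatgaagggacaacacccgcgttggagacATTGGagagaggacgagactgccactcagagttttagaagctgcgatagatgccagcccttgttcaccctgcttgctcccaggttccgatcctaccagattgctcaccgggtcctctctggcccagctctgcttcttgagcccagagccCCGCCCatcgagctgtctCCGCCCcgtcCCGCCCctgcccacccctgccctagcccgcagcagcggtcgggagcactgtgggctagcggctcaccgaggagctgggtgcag
Hspg2: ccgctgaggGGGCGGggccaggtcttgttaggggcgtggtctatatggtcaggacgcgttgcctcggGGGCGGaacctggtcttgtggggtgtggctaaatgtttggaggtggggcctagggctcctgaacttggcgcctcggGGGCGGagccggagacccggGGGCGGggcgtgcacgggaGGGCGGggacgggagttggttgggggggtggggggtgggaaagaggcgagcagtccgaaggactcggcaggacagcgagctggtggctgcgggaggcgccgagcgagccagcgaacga
The letters of the GC box, which the factor Sp1 can bind, occur in 35.7% of all 32851 promoter windows of this length, and those of the CCAAT box in 37.4%. Col4a1 held 1 GC box and 1 CCAAT box, and Col4a2 held 3 and 1. The GC box of Col4a1 and the last GC box of Col4a2 are the same site, within the bases that their windows share. Hspg2 held 5 GC boxes and Col18a1 held 3. Neither was found in the Col15a1, Col4a4 and downstream Col18a1 windows. The TATA box (TATAAA, either strand), found in 13.6% of all windows, was in none of the 10 windows. Col15a1, Col18a1 and Hspg2 thus had no motif of these in common. A match is a description of letters, not of a bound site.

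Col15a1 had the smallest p of the 10 genes. Collagen XV lies at the outer face of basement membranes, where it bridges them to fibrillar matrix. On the log2 scale its probe set (1448755_at) had levels of 11.65, 11.83 and 11.77 in the shTNC samples, against 12.28, 12.17 and 12.09 in the shControl samples. Every shTNC sample lay below every shControl sample. The difference was -0.43 ± 0.09 (SE, n = 3 per group), with a 95% confidence interval from -0.65 to -0.21, an unadjusted p of 0.0018 and a limma adjusted p of 0.21. It ranked 383 of 45101 probe sets by p. Of the 7278 genes with a mean level from 9 to 12, 6.33% were lower at an unadjusted p under 0.05. Leaving out each array in turn gave differences from -0.47 to -0.38.

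Col18a1 encodes the collagen from which endostatin is cut. Its brighter probe set (1418237_s_at) had log2 levels of 10.88, 10.93 and 10.95 in shTNC, against 11.14, 11.30 and 11.08 in shControl. The other probe set (1426955_at) had 10.65, 10.60 and 10.54 in shTNC, against 10.92, 10.66 and 10.96 in shControl. The groups did not overlap in either, although in the second the highest shTNC sample and the lowest shControl sample were 10.65 and 10.66. The differences were close to each other, at -0.25 ± 0.09 (unadjusted p 0.024) and -0.25 ± 0.10 (0.042), with limma adjusted p of 0.32 and 0.37. Without single arrays the second was at 0.05 or above in all but 1 case, at 0.060 to 0.12, and under it without shControl replicate 2 (0.0058). The brighter one kept its direction throughout but did not stay under an unadjusted p of 0.05 without shControl replicate 2 (0.063) or shTNC replicate 1 (0.070), 2 (0.057) or 3 (0.0501). The probe sets with the ending _s_at, here and in Hspg2, can detect more than 1 transcript.

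Hspg2 encodes perlecan, the large proteoglycan of basement membranes. Its brighter probe set (1418670_s_at) had log2 levels of 9.64, 9.83 and 9.95 in shTNC, against 9.94, 10.17 and 10.06 in shControl. The dimmer one (1418669_at) had 9.07, 9.33 and 9.31 in shTNC, against 9.54, 9.65 and 9.20 in shControl. In both the means were lower in shTNC but the groups overlapped. The differences were -0.25 ± 0.11 and -0.22 ± 0.14 (SE, n = 3 per group), with unadjusted p of 0.0502 and 0.14 and limma adjusted p of 0.39 and 0.52. Without shControl replicate 1 or shTNC replicate 3, the brighter probe set passed an unadjusted p of 0.05, at 0.037 and 0.031. Over all fits without a single array its unadjusted p ran from 0.031 to 0.18, with differences from -0.32 to -0.17. For the dimmer probe set these ranges were 0.017 to 0.38 and -0.36 to -0.13.

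**Figure D1:**
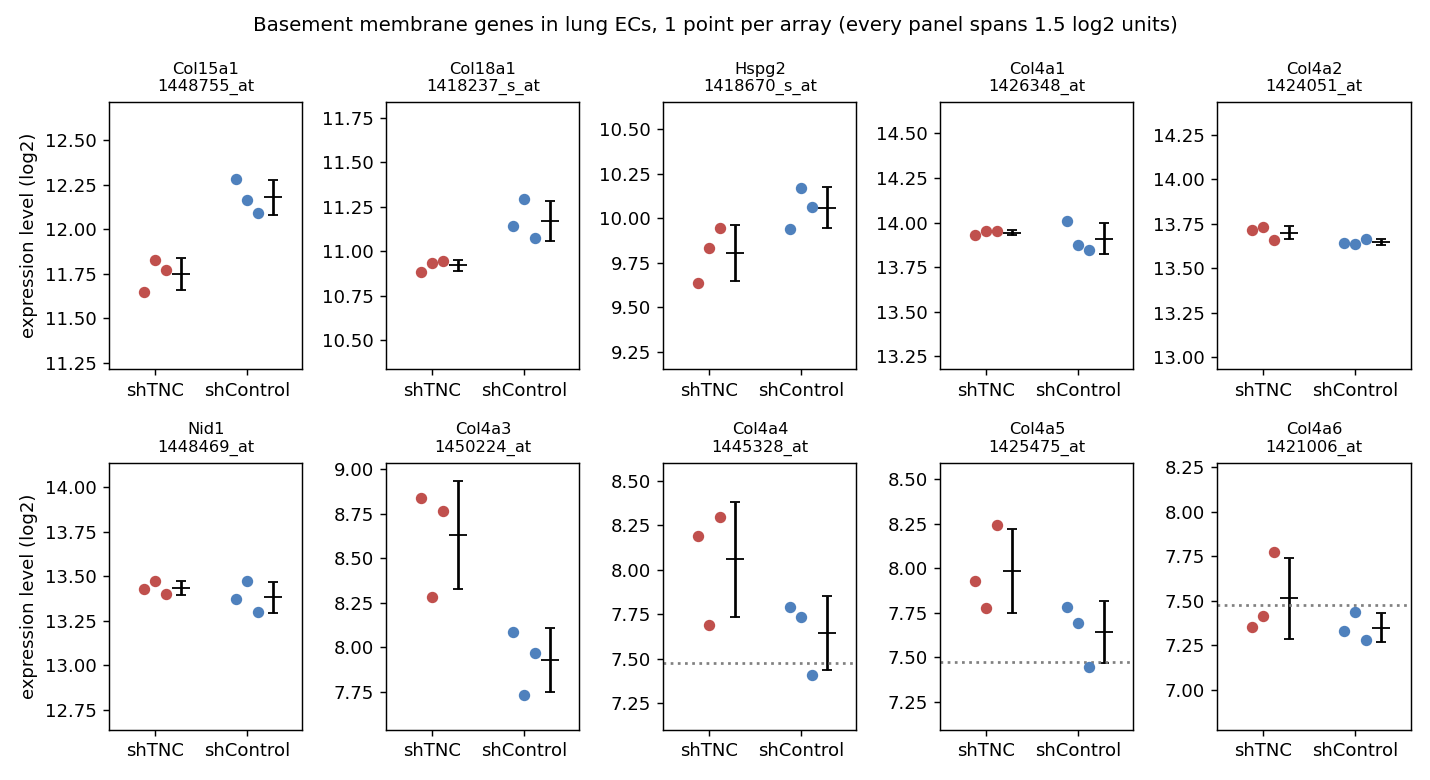
Log2 expression level (y axis) of each of the 10 genes in lung ECs at its probe set with the highest mean, where a point is an array and the bar beside it the mean ± SD (n = 3); every panel spans 1.5 log2 units and the dotted line is the background level of 7.48. Col15a1, Col18a1 and Col4a3 show groups that do not overlap, while the points of Col4a1, Col4a2 and Nid1 lie close together.

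The main vascular collagen IV had nearly the same level in both groups. Col4a1 (1426348_at) had log2 levels of 13.93, 13.95 and 13.95 in shTNC, against 14.01, 13.87 and 13.85 in shControl, a difference of 0.034 ± 0.085 with a 95% confidence interval from -0.16 to 0.23. A second probe set (1452035_at) had 13.96, 13.97 and 13.94 in shTNC, against 13.89, 13.85 and 13.89 in shControl. Those groups did not overlap, but the difference was 0.082 ± 0.078, with an unadjusted p of 0.32 (0.046 with an intensity trend and robust eBayes). Col4a2 (1424051_at), whose chain joins that of Col4a1 in the same trimer, had 13.71, 13.73 and 13.66 in shTNC and 13.64, 13.64 and 13.67 in shControl. It differed by 0.052 ± 0.079, with an interval from -0.13 to 0.23.

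Nid1, the linker of the collagen IV and laminin networks, gave the same picture. Its brightest probe set (1448469_at) had log2 levels of 13.43, 13.48 and 13.40 in shTNC, against 13.37, 13.47 and 13.30 in shControl. The next (1416808_at) had 12.57, 12.72 and 12.66 in shTNC, against 12.47, 12.61 and 12.52 in shControl. Both overlapped between groups, with differences of 0.053 ± 0.086 and 0.12 ± 0.09 and limma adjusted p of 0.83 and 0.60. A dim probe set (1441519_at) differed by -0.065 ± 0.13. The brightest probe sets of these 3 genes lay near the top of the measured range, which ended at 14.53 on every array. Of the 499 genes with a mean over 13, 4.01% were at an unadjusted p under 0.05 in either direction.

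**Figure D2:**
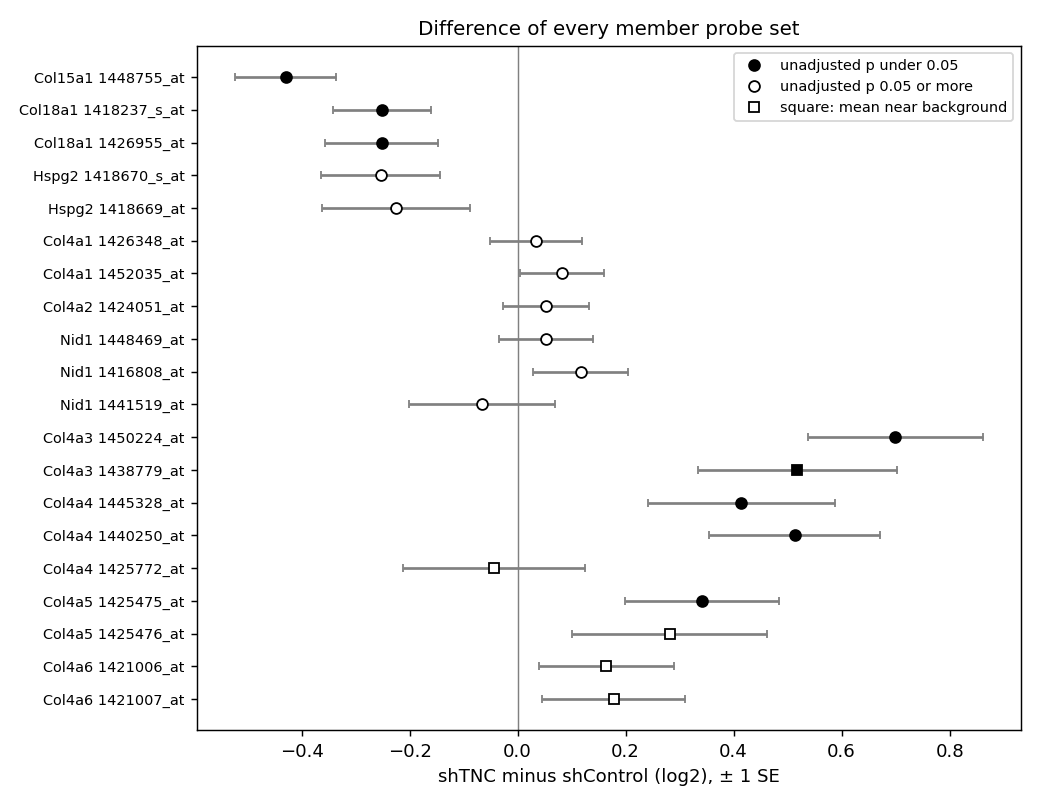
Difference of shTNC minus shControl (log2, x axis) for each of the 20 probe sets, where bars are 1 SE of the limma fit (3 arrays in each group); filled symbols have an unadjusted p under 0.05 and squares have a mean under the background level. The probe sets of Col15a1, Col18a1 and Hspg2 lie below 0, and those of Col4a3 and Col4a5 above it.

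Of the other chains of collagen IV, Col4a3, Col4a4 and Col4a5 had higher values in shTNC and Col4a6 did not pass an unadjusted p of 0.05. The background level was set at 7.48, a level that 95% of 44 probe sets for olfactory receptors did not exceed, and 15 of the 20 probe sets and 9 of the 10 genes had a mean above it. Col4a3 encodes the chain that carries the main epitope of the autoantibodies of Goodpasture disease, which attack lung and kidney. Its probe set 1450224_at had log2 levels of 8.84, 8.28 and 8.77 in shTNC, against 8.08, 7.73 and 7.97 in shControl. The groups did not overlap. The difference was 0.70 ± 0.16 (SE, n = 3 per group), with a 95% confidence interval from 0.33 to 1.07, an unadjusted p of 0.0025 and a limma adjusted p of 0.22, and it was between 0.59 and 0.87 when each array was left out. The dimmer probe set (1438779_at), near background, had 7.68, 7.22 and 8.00 in shTNC, against 7.07, 7.01 and 7.27 in shControl. It differed by 0.52 ± 0.18 (unadjusted p 0.022) with groups that overlapped, and passed 0.05 in only 2 of the 6 fits without a single array. It was at 0.062 without shControl replicate 1, 0.068 without shControl replicate 2, 0.060 without shTNC replicate 1 and 0.072 without shTNC replicate 3, where the difference was 0.34.

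Col4a4, the neighbour of Col4a3 and its partner in the trimer, gave like values at 2 of 3 probe sets. The brightest (1445328_at) had log2 levels of 8.19, 7.69 and 8.30 in shTNC, against 7.79, 7.73 and 7.41 in shControl, and overlapped through shTNC replicate 2. The next (1440250_at) had 8.06, 7.69 and 8.25 in shTNC, against 7.27, 7.57 and 7.63 in shControl, with no overlap. They differed by 0.41 ± 0.17 (unadjusted p 0.043, limma adjusted p 0.37) and 0.51 ± 0.16 (0.012 and 0.28). The dimmest (1425772_at), under the background level, differed by -0.043 ± 0.17. The brightest probe set did not pass an unadjusted p of 0.05 without shControl replicate 2 (0.058) or 3 (0.15) or without shTNC replicate 1 (0.13) or 3 (0.15).

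Col4a5, whose chain serves in both of the less common trimers, had log2 levels of 7.93, 7.78 and 8.24 in shTNC at 1425475_at, against 7.78, 7.69 and 7.44 in shControl. The lowest shTNC sample and the highest shControl sample were at the same 7.78. The difference was 0.34 ± 0.14, with an unadjusted p of 0.042 and a limma adjusted p of 0.37. It did not pass that level without shControl replicate 2 (0.062) or 3 (0.14) or without shTNC replicate 1 (0.067) or 3 (0.15). The second probe set (1425476_at), near background, differed by 0.28 ± 0.18. Col4a6, which pairs with Col4a5 under some epithelia and lies beside it on chromosome X, with start sites 1343 bases apart, had both probe sets under the background level, with differences of 0.16 ± 0.12 and 0.18 ± 0.13 (unadjusted p 0.22 and 0.21) and overlapping groups. Without shTNC replicate 3 they were 0.034 and 0.068, and without shControl replicate 3 the second was 0.084. Its levels at 1421006_at were 7.35, 7.41 and 7.77 in shTNC, against 7.33, 7.44 and 7.28 in shControl. For genes at the level of these chains, with a mean from 7 to 8.5, the median difference was -0.078. At an unadjusted p under 0.05, 4.58% of those 5005 genes were higher and 10.9% lower.

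The sorted cells had the markers of ECs at high levels. The mean log2 level of 12 pan-endothelial markers was between 13.38 and 13.42 in shTNC and between 13.38 and 13.44 in shControl, and 0 of the 12 were at an unadjusted p under 0.05. Pecam1, which encodes CD31, differed by -0.028 ± 0.081. In bulk RNA of sorted cells, fewer cells of a type and less RNA per cell cannot be told apart. Alveolar type I cells, the flat epithelium that shares a fused basement membrane with lung capillaries, are a known source of Col4a3 and Col4a4. Of 7 markers of these cells 6 were above background, and all 7 had positive differences, from 0.019 to 0.19. Over all genes, 7592 of 18194 had positive differences. At the probe set with the highest mean, 0 of the 7 were at an unadjusted p under 0.05. Groups did not overlap in 2 of them, against 7.36% of all genes that were higher without overlap. These were Clic5, which lung capillary ECs also express, at 0.16 ± 0.08, and Hopx, at 0.16 ± 0.09. The second probe set of Hopx differed by 0.28 ± 0.11 (unadjusted p 0.039). The mean level of the 7 markers was 9.94, 9.91 and 10.36 in shTNC, against 10.01, 9.93 and 9.86 in shControl. The highest array, shTNC replicate 3, was also the highest for Col4a4 and Col4a5. It was the highest for the fibroblast, pericyte, other epithelial and macrophage lists given below too, but not for the mesothelial list. The type I, fibroblast and pericyte means were lowest in shControl replicate 3, as were Col4a4 and Col4a5 at their brightest probe sets. Ager, the marker most particular to these cells, had 10.43, 10.19 and 11.01 in shTNC, against 10.26, 10.52 and 10.28 in shControl, and the groups overlapped. Its differences were 0.19 ± 0.20 and, at a second probe set, 0.34 ± 0.25. Without shTNC replicate 3 Col4a3 differed by 0.63 (unadjusted p 0.011), Col4a4 by 0.30 and Col4a5 by 0.21. The mean level of 9 other epithelial markers overlapped between groups, at 8.56 to 9.88 in shTNC and 8.78 to 9.66 in shControl. Of them 1 was lower at an unadjusted p under 0.05, Nkx2-1. Their mean was lowest in shTNC replicate 2, the shTNC array with the lowest values of Col4a3, Col4a4 and Col4a5. The mesothelial, macrophage and pericyte lists given below were also at their lowest shTNC level there. Among shControl arrays the epithelial mean was lowest in replicate 1, at 8.78. That array had the highest shControl values of Col4a3, Col4a4 and Col4a5 at their brightest probe sets, and the highest shControl type I mean. At 1440250_at of Col4a4 it was the lowest shControl array, and at 1438779_at of Col4a3 shControl replicate 3 was highest. Epcam, whose product was used to exclude epithelium, differed by -0.059 ± 0.14.

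Fibroblasts and pericytes also make collagen IV and its partners. Mean levels of 9 fibroblast markers ran between 9.34 and 9.79 in shTNC and 9.04 and 9.46 in shControl, with 0 markers at an unadjusted p under 0.05. Of the 9, 6 had positive and 3 negative differences, with a median of 0.28, against -0.030 over all genes. The mean level of 12 pericyte and smooth muscle markers was 8.67 to 8.87 in shTNC and 8.55 to 8.70 in shControl. Of the 12, 2 were higher at an unadjusted p under 0.05, Myh11 and Des. Over all genes, 4.54% were higher and 7.12% lower at that p. The sort genes Pdgfra and Pdgfrb differed by -0.012 ± 0.25 and -0.0067 ± 0.17 at their brightest probe sets. A second probe set of Pdgfrb (1436970_a_at) was higher in shTNC, by 0.78 ± 0.17 with an unadjusted p of 0.0014 and groups that did not overlap, and a second of Pdgfra (1421916_at) differed by -0.47 ± 0.23 (0.079). Mesothelial markers, of which 4 of 6 were above background, had a mean level of 7.89 to 9.09 in shTNC and 7.96 to 8.02 in shControl. Of the 6, 5 had positive differences and 1 a negative one, with a median of 0.74. At an unadjusted p under 0.05 there was 1 higher, Gpm6a, at 0.76 ± 0.24 (0.50 ± 0.22 at its other probe set, unadjusted p 0.055). Among 11 macrophage and blood cell markers 2 were lower, Mrc1 and Cd14, and Ptprc and Itgam, used in the sort, differed by 0.32 ± 0.25 and -0.25 ± 0.17. The mean level of 19 cell cycle genes did not overlap between groups, at 10.45 to 10.53 in shTNC and 10.74 to 11.10 in shControl. Of them 11 were lower at an unadjusted p under 0.05, against 7.12% of all genes. Col15a1, Col18a1 and Col4a3 did not overlap either. Within shControl, Col15a1 was highest in replicate 1, where the cell cycle mean was lowest. In shControl replicate 2, where that mean was highest, Col18a1 was highest at 1418237_s_at but lowest at 1426955_at. The 3' minus 5' signal of Actb, a measure of RNA quality, was 0.197 to 0.274 in shTNC and 0.276 to 0.291 in shControl, while that of Gapdh overlapped, at 0.499 to 0.581 in shTNC and 0.558 to 0.567 in shControl. The part of other cells, of cycling or of RNA quality in the differences was not tested.

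**Figure D3:**
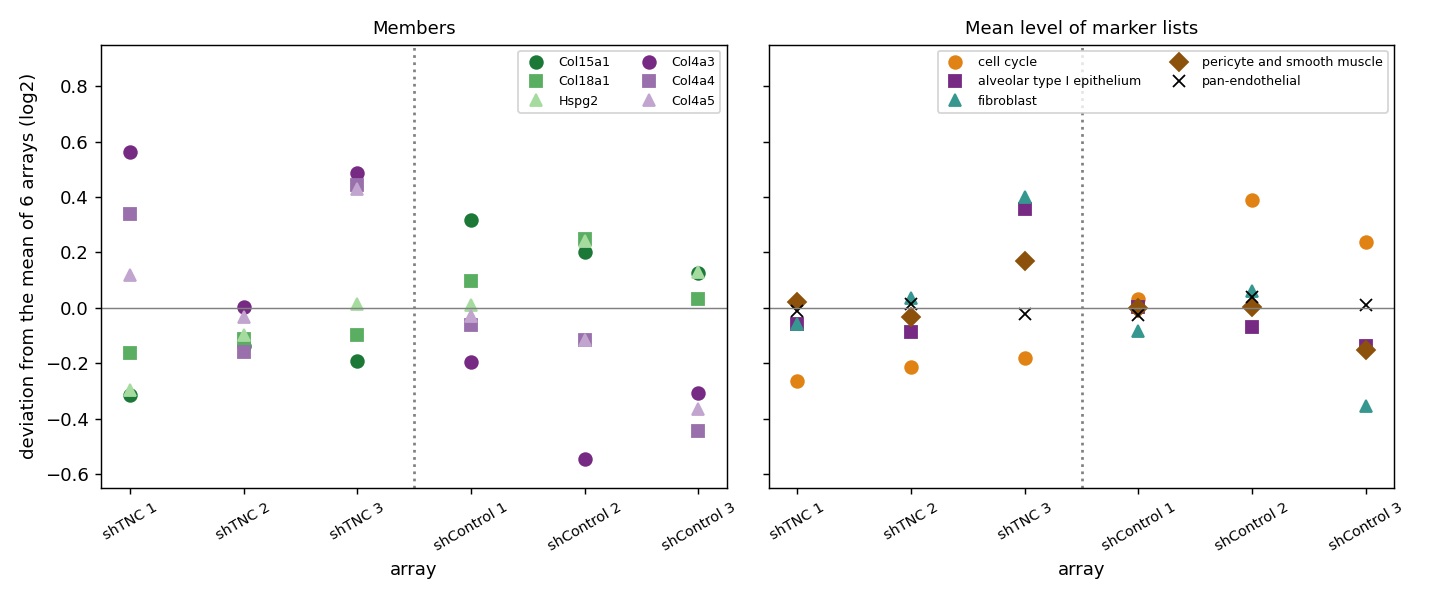
Deviation of each array from the mean of all 6 arrays (log2, y axis), with shTNC arrays left of the dotted line: 6 of the genes in the left panel and the mean level of 5 marker lists in the right panel. Col15a1 and Col18a1 are below 0 in all shTNC arrays, and Col4a3 is lowest in shTNC replicate 2 among the shTNC arrays. The type I cell, fibroblast and pericyte markers are highest in shTNC replicate 3.

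Other components of the basement membrane were laminins and smaller binding proteins. Of 23 measured, 12 were below and 11 above 0, with a median of -0.016, and at an unadjusted p under 0.05 there were 4 lower and 0 higher genes. The 4 were the laminin chains Lama4, Lama1 and Lamc1 and the proteoglycan-like Papln. Lama4, the alpha chain of vascular laminin, had a level of 10.85 in shTNC and 11.49 in shControl, a difference of -0.64 ± 0.11 (limma adjusted p 0.18), and -0.66 ± 0.21 at a second probe set. Lama1, with 9.99 in shTNC and 10.52 in shControl, differed by -0.52 ± 0.13, and Lamc1, the gamma chain of most laminins, by -0.25 ± 0.09, with -0.20 ± 0.09 (unadjusted p 0.051) at a second probe set. Sparc, a collagen IV binding protein, differed by -0.016 ± 0.084 at its brightest probe set, 0.044 ± 0.082 at the next and -0.33 ± 0.09 (unadjusted p 0.0076) at the dimmest, and Nid2, the second nidogen, by 0.093 ± 0.15. Agrn, the other large heparan sulphate proteoglycan of basement membranes, differed by -0.090 ± 0.092 and -0.18 ± 0.10 at its probe sets.

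Genes that fold, modify and cross-link collagen had a median of -0.086 over 21, with 1 gene lower and 1 gene higher at the same p. Crtap, part of the complex that hydroxylates proline in collagen, differed by -0.22 ± 0.08, and P4ha3, a prolyl hydroxylase subunit near background, by 0.30 ± 0.11. Plod1, a lysyl hydroxylase, and Loxl3, a lysyl oxidase, differed by -0.21 ± 0.12 each. Of 16 genes that build or edit heparan sulphate, the sugar chain of perlecan, 1 was lower and 1 higher. Ndst2, a sulphotransferase, differed by 0.43 ± 0.11. Hs2st1, another, differed by -0.28 ± 0.09 at its brightest probe set but by 0.32 ± 0.08 (unadjusted p 0.0046) at 1422739_at, with 0.037 ± 0.086 and -0.0026 ± 0.089 at the others. Hs3st1 and Glce, a sulphotransferase and an epimerase of the chain, differed by 0.23 ± 0.10 and 0.16 ± 0.09.

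Among 11 receptors of collagen and basement membrane, Ddr2, a collagen receptor kinase, differed by 0.42 ± 0.12 and was the 1 gene at an unadjusted p under 0.05, with 0.12 ± 0.09 (0.23) at a second probe set. The integrin genes Itga5, Itgb1 and Itgav differed by -0.16 ± 0.08, -0.13 ± 0.08 and 0.16 ± 0.12. Other probe sets above background ran from -0.044 to 0.30 for Itga5 and from -0.21 to -0.023 for Itgav. Tll1, an astacin protease that processes matrix proteins, was the 1 of 12 protease genes at that level at the probe set with the highest mean, with a difference of 0.57 ± 0.10 and a limma adjusted p of 0.18. Plau, Bmp1 and Mmp14 differed by 0.20 ± 0.13, -0.13 ± 0.09 and -0.15 ± 0.10. Bmp1 also differed by -0.39 ± 0.14 (unadjusted p 0.022) at 1427458_at and by 0.015 ± 0.12 at 1426238_at, and Mmp14 by 0.0068 ± 0.095 and -0.28 ± 0.13 at its other probe sets. None of the 8 interstitial collagen genes passed an unadjusted p of 0.05. Their differences ran from -0.29 to 0.29, with Col6a3 and Col6a1 at the ends, and Col5a2 and Col1a1 differed by -0.10 ± 0.11 and -0.13 ± 0.14. Over the 91 genes of these 6 lists, 6 were lower (6.59%) and 4 higher (4.4%) at that p, against 7.12% and 4.54% of all genes, and in limma 0 had an adjusted p under 0.05.

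**Figure D4:**
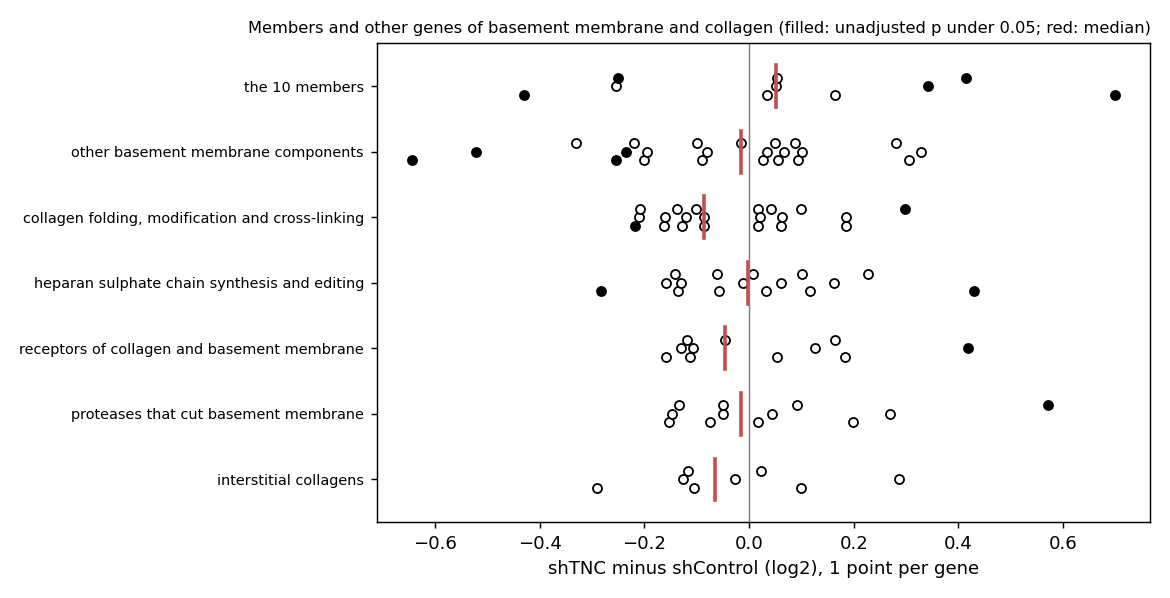
Difference of shTNC minus shControl (log2, x axis) with 1 point per gene for the 10 genes and for 6 lists of related genes; filled points have an unadjusted p under 0.05 in limma (n = 3 arrays per group) and the red line is the median of the list. The 10 genes span -0.43 to 0.70, and the interstitial collagens, at the bottom, have no filled point.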

How the data were processed

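Total RNA of sorted lung ECs was labelled from 2 ng with a 3' IVT Pico kit, per the labels, and measured on Affymetrix GeneChip Mouse Genome arrays. The deposited values are log2 levels per probe set. For its arrays in general the paper names RMA normalization in Chipster, but the labels do not name the normalization of these values. The sorted values of any pair of arrays differed by at most 0.0700, and arrays correlated between 0.986 and 0.994. No raw array files were used here, and the number of arrays limits the precision. Such values give relative levels, which can compress at the bright end, and levels of different probe sets were not compared.

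All 45101 probe sets were fitted in R 4.3.3 by lmFit and eBayes of limma 3.58.1, with both directions tested and p adjusted by Benjamini-Hochberg over the whole table. Differences are shTNC minus shControl with limma's standard error (SE). Symbols came from the platform annotation. A gene was read from its probe set with the highest mean, and the other probe sets of the 10 genes were reported beside it. For other genes they are given where one above background lay on the other side of an unadjusted p of 0.05 or of 0. The fit was tested on simulated data with known shifts. Of 183 list entries 176 were matched. The genes named were all 10 genes, up to 4 of each related list with the smallest p, and sort or leading markers. Sparc, Nid2, Agrn Ager and the level bands were picked with their values known. The 10 genes and the lists were chosen with earlier results of these data known.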

Additional observations from a re-analysis of the deposited data

How the results depend on the processing

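Quantile normalization, median centring, a filter on dim probe sets, robust eBayes with a trend on intensity, array weights, a replicate block, 1 probe set per gene and the mean of a gene's probe sets turned the direction of no probe set fitted under them (15 of 20 with the filter, 1 value for each of the 10 genes under the last pair of settings), and 0 of the 10 genes passed an adjusted p of 0.05 in limma under any of them. At an unadjusted p under 0.05, the count of higher genes was 1 with array weights in place of 3, since Col4a4 and Col4a5 lost that level there. Leaving out each array in turn gave 1 to 3 lower genes, 1 to 3 higher genes, a median over the 10 genes from 0.034 to 0.072, and 3 to 12 lower and 3 to 6 higher genes in the related lists. The 12 lower were without shControl replicate 3. The dim probe set 1425772_at of Col4a4 ran from -0.15 to 0.15 when single arrays were left out, above 0 with shControl replicate 3 (0.15) or shTNC replicate 2 (0.045) left out. For 1441519_at of Nid1 the range was -0.15 to 0.064, above 0 without shControl replicate 3. The cause was not tested. Col15a1, Col4a3 (1450224_at) and Col4a4 (1440250_at) kept an unadjusted p under 0.05 without any single array, at 0.0023 to 0.0090, 0.00022 to 0.011 and 0.0019 to 0.047. Hspg2 passed that level with median centring (0.0495), the filter on dim probe sets (0.0499), 1 probe set per gene (0.0434) and the block (0.0403).

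Same-numbered samples share only a number: their deviations from the group means correlated by -0.085, 0.041 and 0.10. With the replicate block, 1 gene was higher at an unadjusted p under 0.05, in place of 3, and 1426955_at of Col18a1 was at 0.056. Scan dates and raw signals were not used here, so no background correction or slide was tried. The number of arrays limits each value, and levels near background limit Col4a6 most.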

Other observations

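Likeness of pattern was taken over the 6 arrays after each group's mean was removed, as a description only. Among 13444 genes above background, 150 had a Pearson r over 0.95 with Col4a1, led by Aagab, Cops5 and Ndrg1, and 120 with Col15a1, led by Agtrap, Srp14 and Efl1. With so few arrays many genes reach such a value. None of these 6 genes differed between shTNC and shControl at an unadjusted p under 0.05, and none of the 6 is a gene of the basement membrane. The other genes with an r over 0.95 were not looked at one by one.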
